A study of Arabidopsis thaliana with 34 samples.

Results

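The comparison described here is that of C13 shoots after 2 h of hypoxia with untreated C13 shoots of 2 h, which is 1 of the 34 group comparisons of an Arabidopsis thaliana microarray study. It was chosen by its title alone, and its members are all 34558 probe rows of the authors' deposited table. A value is a log fold change, hypoxia minus control, and the table lists it only where the authors' empirical Bayes test gave p of at most 0.01, with no adjustment for the number of tests stated. Of the 34558 rows 5986 were listed (17.3%), 2970 of them higher (8.59%) and 3016 lower (8.73%) after hypoxia, where chance alone would list about 346.

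The treated plants were C13 plants of the Landsberg background, 16 days old, given 2 h at 4% oxygen, and their controls were C13 plants of the same age left untreated for 2 h. C13 is a line that makes the haemoglobin of the bacterium Vitreoscilla (VHb) in the cytosol, so the treated plants and their controls both carried it. It is a single line, labelled 1:3. The sources used here do not give the promoter of the transgene, and no probe named for VHb was found, so the line could not be checked by its transgene. The plants used for comparison were Mt62, line 6:2, with VHb in mitochondria, and wild type (WT), each after 2 h of hypoxia and after 2 h untreated, and C13 untreated at 0 h. All plants grew on agar plates with 1% sucrose in days of 10 h light and 14 h dark. For hypoxia the plates were sealed in bags with a sachet that consumes oxygen, and they stayed in the growth chamber, where the plants could photosynthesise.

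By the sample descriptions, C13 hypoxia had 3 array channels on 3 slides and C13 control had 4 channels on 4 slides. The design text calls the samples biological replicates and does not say whether they were grown separately, so p-values measure the spread between these samples, which may be partly technical. The description of this comparison names only 3 of the control fields, 1 of them repeated, and the other comes from other descriptions. A further hypoxia channel is marked as lost, so the channel numbers, which scale the bound on the standard error, are not certain. The hypoxia channels carried HyPer5 in 0, Cy3 in 1 and an Alexa dye in 2 cases, and the control channels in 2, 1 and 1 cases. Dyes and slides were thus unequal between the groups, and their part in the results was not tested. The table gives no value per channel, so no level per sample, standard deviation or marker level can be shown. The labels do not state the logarithm's base, which is taken as 2. The words "at most" beside a standard error mark an upper bound taken from the smallest value listed for a row in any comparison, which is wide where all listed values of a row are large. The number of arrays limits the precision.

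When oxygen runs short, plants turn from respiration to fermentation, which keeps glycolysis running with little yield of ATP. In Arabidopsis the signal runs through ERF-VII transcription factors. In air, plant cysteine oxidases (PCO) mark these factors for degradation, and under hypoxia they persist and switch on a core set of anaerobic genes. Low energy in plants is also sensed by the kinase SnRK1, which raises genes of sugar starvation, and sugar supply and light feed into the circadian clock.

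Over named genes, 24530 were measured and 4920 were called, that is listed with 1 sign (20.1%). Of these 2374 rose (9.68%) and 2546 fell (10.4%). The median gain was 0.66 and the highest 5.08 on the log2 scale, with 12 genes at 4 or more. The median loss was -0.72 and the lowest -3.29, with 4 genes at -3 or below. A size of 1 or more was found for 560 genes that rose and 706 that fell (27.7%). The standard error was at most 0.20 for the median called gene. In the authors' deposited table the smallest listed gains were 0.24 for AT3G54760 and 0.23 for AT1G04340 and AT4G21460, and the smallest losses were -0.24 for AT4G27595 and -0.25 for AT3G16060 and AT2G18570.

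The 15 highest genes were mostly genes of the anaerobic response. In the authors' deposited table AT5G66985, given no function here, rose by 5.08 (standard error at most 1.61). PDC1, a pyruvate decarboxylase and the first enzyme of ethanol fermentation, rose by 4.90 (at most 1.63). AT5G10040 rose by 4.75 (at most 1.74), SRO5, a member of the RCD1-like family, by 4.74 (at most 1.1) and the LOB-domain factor gene LBD41 by 4.65 (at most 1.2). The rhodanese-like gene AT2G17850 rose by 4.59, AT4G24110 by 4.28, AT4G10265 of the wound-responsive family by 4.27, and the B12D-family gene AT3G29970 by 4.17. GPT2, which carries glucose 6-phosphate into plastids, rose by 4.13 (at most 0.73) and ADH1, the alcohol dehydrogenase of ethanol fermentation, by 4.12 (at most 1.34). AT3G56290 rose by 4.02, AT4G26460 by 4.00, the calmodulin-like CML38 by 3.99 and HRA1, a trihelix repressor of the hypoxia response, by 3.81. AT3G56290 stood at 1.42 against the 0 h control, and the untreated control itself fell by 2.6 between 0 and 2 h.

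The 15 lowest genes held cell wall, sugar-repressed and nitrate-responsive genes. BXL1, a beta-xylosidase of the wall, fell by 3.29 (standard error at most 0.48) in the authors' deposited table, BT2, a scaffold protein with BTB and TAZ domains, by 3.22 (at most 0.45), and EXO, an exordium protein linked to growth, by 3.15 (at most 0.59). The exordium-like EXL3 fell by 2.7, BT4, a relative of BT2, by 2.90, and the beta-galactosidase BGAL1 by 2.76. SEN5 fell by 2.86, TPS11, of the trehalose-phosphate synthase family, by 2.78, and the bZIP factor gene BZIP61 by 2.7. RVE2, a MYB-like factor related to the clock, fell by 2.83 and the CCT-domain gene AT1G07050 by 2.73. Against the 0 h control AT1G07050 had the opposite sign, 1.23, its untreated control having risen by 3.96 between 0 and 2 h. BT2, EXO and EXL3 kept their sign there with smaller values, -1.59, -1.83 and -1.09. The other members were AT5G11070 at -3.01, AT3G15630 at -2.98, AT5G44680 at -2.89 and AT3G49790 at -2.7. In Mt62 and WT each of the 30 genes was listed with the same sign.

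**Figure D1:**
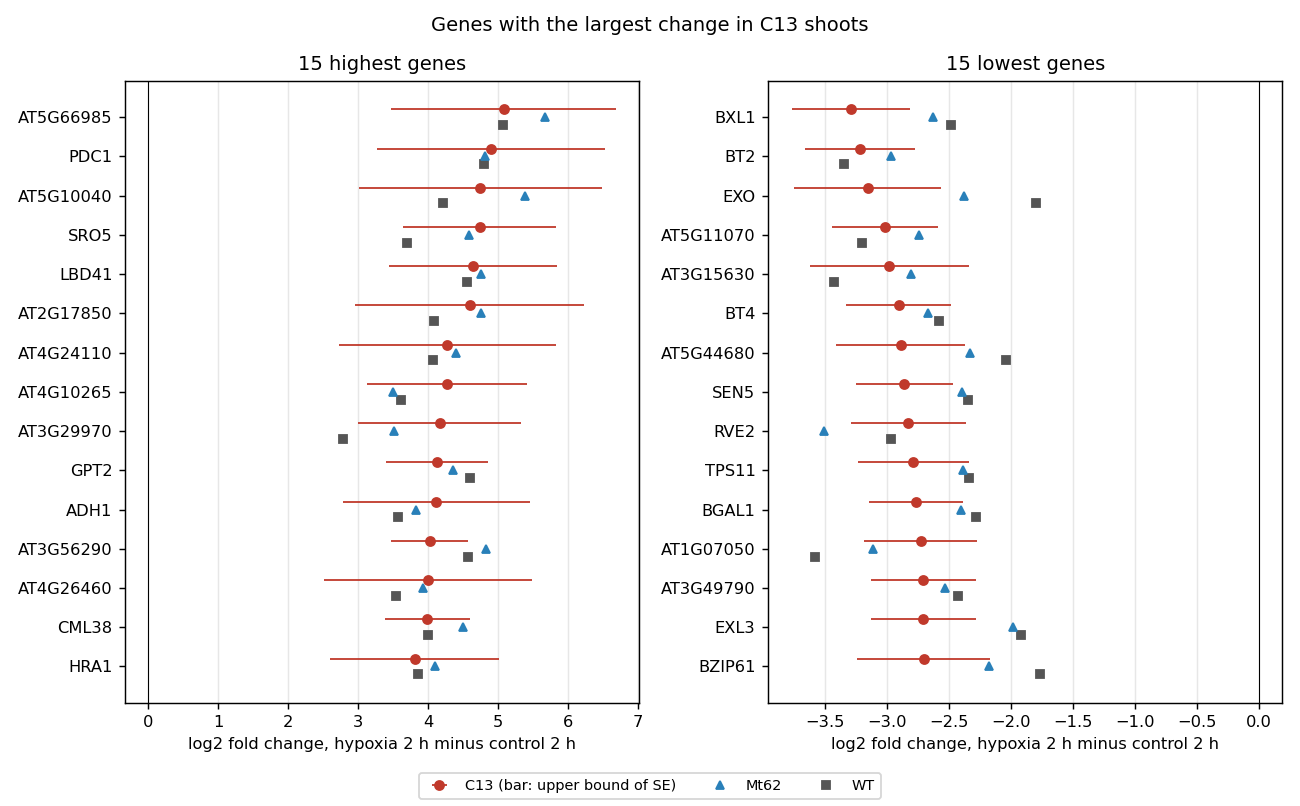
Log2 fold changes, hypoxia 2 h minus control 2 h, of the 15 highest and 15 lowest genes of C13 (circles; bars are the upper bound of the standard error), with Mt62 (triangles) and WT (squares). PDC1 lay at 4.90 in C13, 4.82 in Mt62 and 4.81 in WT, while EXO lay at -3.15 in C13, -2.38 in Mt62 and -1.80 in WT.

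Of the 18 measured genes of fermentation and sucrose cleavage 9 rose and 1 fell (5.56%), with a median of 2.38 over the listed members, where all called genes had a median of -0.35. Besides PDC1 and ADH1, the authors' deposited table gave 3.51 for PDC4, 3.34 for PDC2 (standard error at most 0.50) and 2.92 for PDC3. PDC3 and PDC4 are near-identical in sequence, and a probe may read both. Alanine aminotransferase, which stores carbon and nitrogen as alanine, rose by 1.84 for AlaAT1 and 1.28 for ALAAT2. Lactate dehydrogenase LDH1 rose by 1.60, and sucrose synthase SUS1, which opens sucrose cleavage with little ATP, rose by 1.41 (at most 0.52). SUS4, a second sucrose synthase, was not listed and lay at 1.05 or less in size. The cytosolic invertase CINV1 was the member that fell, by 0.50.

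Oxygen sensing had 10 of 21 measured members higher and 0 lower (47.6%). HB1, the plant's own class 1 haemoglobin, which scavenges nitric oxide, rose by 3.67 (standard error at most 1.24) in the authors' deposited table. PCO1 and PCO2, which sense oxygen by oxidising the ERF-VII factors, rose by 3.4 and 3.31 (at most 1.25 and 0.90). HRE2, an ERF-VII factor gene, rose by 2.46 and RAP2.2, of the same group, by 2.1 (at most 0.26). RBOHD, the NADPH oxidase that forms superoxide, rose by 2.39. The gain of ACBP2, an acyl-CoA-binding protein that can hold ERF-VII factors at membranes, was 0.31. HRE1, with 2 rows, was not listed in C13 and was listed at 0.81 in Mt62 and 0.65 in WT. Its bound in C13, 0.52 in size, is a mean over its rows that have one, not a limit for each row. Its difference between lines was not tested.

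Of the 9 measured genes of haemoglobins and NO turnover, 2 rose (22.2%) and 1 fell (11.1%), beside 9.68% and 10.4% of all measured genes. GLB3, a truncated haemoglobin, rose by 2.34 (standard error at most 0.77) in the authors' deposited table. NIA2, one of the nitrate reductases, fell by 1.18 (at most 0.33), with 1 of its 2 rows listed. The other nitrate reductase, NIA1, and the class 2 haemoglobin HB2 were not listed, at no more than 0.89 and 0.87 in size. HOT5, the nitrosoglutathione reductase, has no row named here.

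The rest of the anaerobic core had 22 of 32 measured members higher (68.8%) and 3 lower. Its largest values belonged to genes given above. The members that fell were AT3G61060, a phloem-protein 2 homologue, by 1.93, AT3G10020 by 1.22 and AT5G61440, a thioredoxin-like protein of chloroplasts, by 1.06, in the authors' deposited table. Against the 0 h control AT5G61440 was listed at 0.88, the opposite sign.

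In glycolysis, of 27 measured members 8 rose (29.6%) and 3 fell (11.1%), beside 9.68% and 10.4% of all measured genes. PFK6 and PFK3, phosphofructokinases, stood at 1.35 and 1.31 in the authors' deposited table. GAPC1, the cytosolic glyceraldehyde-3-phosphate dehydrogenase, rose by 1.01, and PPC2, a phosphoenolpyruvate carboxylase, fell by 1.01. Ethylene genes had 8 of 19 members higher (42.1%) and 1 lower (5.26%). The receptor ETR2 rose by 3.34 (standard error at most 0.43), ACO1, the enzyme that forms ethylene, by 2.57, the ethylene-inducible growth gene ARGOS by 2.08 and EBF2, which removes the factor EIN3, by 1.35. EIL1, an EIN3-like factor gene, fell by 1.01.

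**Figure D2:**
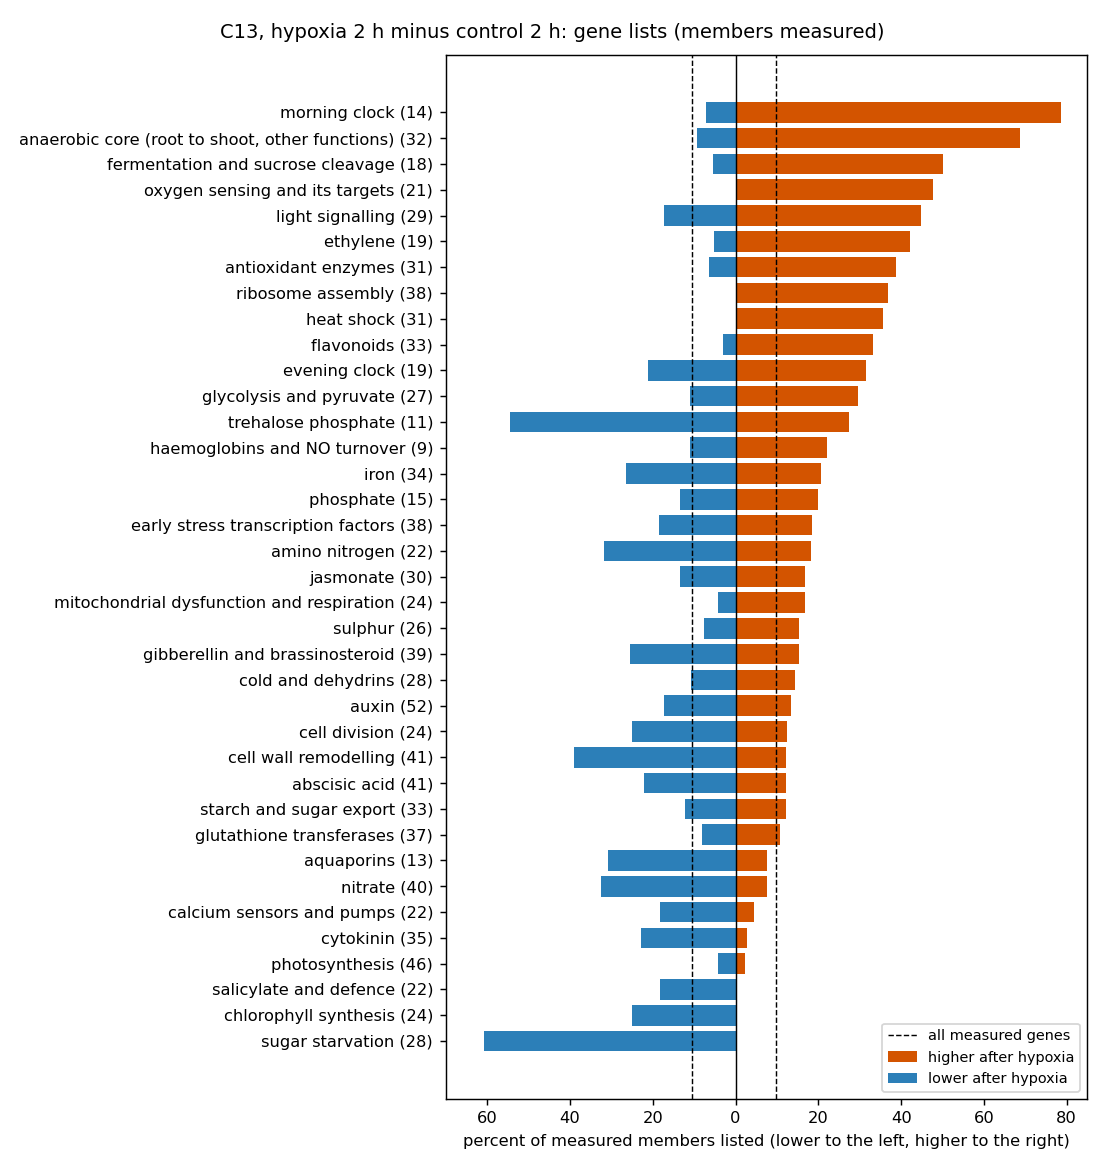
Percent of measured members listed as higher (right) and lower (left) after hypoxia for 37 gene lists, with the number measured in brackets; dashed lines mark all measured genes, 9.68% and 10.4%. The morning clock had 78.6% of members higher and sugar starvation 60.7% lower. Against the 0 h control, not drawn here, 3 morning clock members were higher and 6 lower. The lists were chosen with earlier results of these data known.

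Of the 28 measured sugar starvation genes 17 fell (60.7%) and 0 rose, against 10.4% of all measured genes that fell. The listed members had a median of -1.55. The lists were chosen with earlier results of these data known, so this share is no independent test. BXL1 and SEN5 led, and the hexose carrier gene STP1 fell by 2.68 (standard error at most 0.27) in the authors' deposited table. MCCA, a subunit of methylcrotonyl-CoA carboxylase in leucine breakdown, fell by 2.14 and its partner MCCB by 1.16. Among the regulators, the SnRK1 subunits AKINBETA1 and KING1 fell by 1.55 and 1.44, and the bZIP factors BZIP1, BZIP53 and BZIP63 by 1.83, 1.42 and 1.39. STP1 stood at -1.43 and KING1 at -0.72 against the 0 h control. ASN1, the dark-inducible asparagine synthetase, fell by 1.97 and was listed in neither Mt62 nor WT. Its difference from the computed response of Mt62, -1.03 (standard error at most 0.73), did not pass, with an adjusted p of 1.0.

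Trehalose phosphate genes fell in 6 and rose in 3 of 11 measured members. TPS8, TPS9, TPS10 and TPS6, members of the class II synthase family, stood at -2.54, -2.16, -1.46 and -1.49 in the authors' deposited table, and TPS11 at -2.78. TRE1, the enzyme that cleaves trehalose, rose by 1.31. In starch and sugar export 4 of 33 rose and 4 fell (12.1% each), near the 9.68% and 10.4% of all genes. GPT2 stood at 4.13 and SWEET12, a sucrose exporter, at -2.31.

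Nitrate genes had 13 of 40 measured members lower (32.5%) and 3 higher (7.5%), beside 10.4% and 9.68% of all measured genes. LBD37 and LBD39, repressors of nitrogen genes, fell by 2.64 and 1.99 and BT1, a relative of BT2, by 2.13 (-1.11 against the 0 h control), in the authors' deposited table. The kinase gene CIPK3 fell by 1.95 and CLCA, which loads nitrate into the vacuole, by 1.67. In amino nitrogen 7 of 22 fell and 4 rose. ASP2, an aspartate aminotransferase, rose by 3.02 (standard error at most 1.16), and ASN2, a second asparagine synthetase, fell by 1.22.

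The clock lists held genes whose sign depended on the control. The morning clock had 11 of 14 measured members higher (78.6%) and 1 lower. Against the 0 h control 3 of its members were higher and 6 lower. In the authors' deposited table LNK3 rose by 2.4, RVE7 by 2.1, CCA1, a central morning repressor, by 1.94 and LNK2, a coactivator, by 1.90 (standard errors at most 0.28). In the evening clock list 6 of 19 rose and 4 fell, with COR27, a cold-regulated clock repressor, at -1.87. Against the 0 h control 12 evening members were higher and 3 lower. BBX32 and CDF3, placed in this list, rose by 2.13 and 1.81. Their untreated controls fell between 0 and 2 h, at -0.96 and -2.68, like that of CCA1 and unlike that of COR27. Against the 0 h control BBX32 stood at 1.18 and CDF3 at -0.87. Set against the 0 h control, LNK3 stood at -1.44, CCA1 at -1.14, LNK2 at -1.25 and COR27 at 3.35. RVE7 kept its sign there, at 0.95. The untreated C13 controls themselves changed between 0 and 2 h, with LNK3 at -3.84, CCA1 at -3.08 and COR27 at 5.22.

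**Figure D3:**
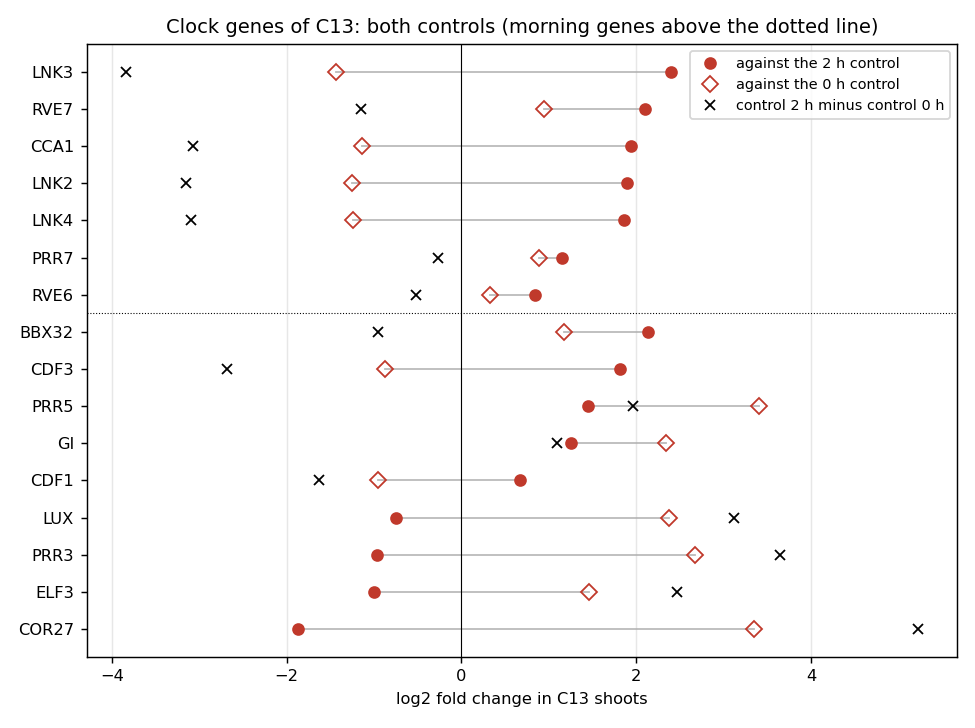
Log2 fold changes in C13 for every morning and evening clock gene listed against both controls, with hypoxia 2 h against the 2 h control (filled circles), hypoxia 2 h against the 0 h control (diamonds) and control 2 h minus control 0 h (crosses). COR27 lay at -1.87 against the 2 h control and 3.35 against the 0 h control, while PRR5 lay at 1.45 and 3.41.

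Light signalling had 13 of 29 members higher (44.8%) and 5 lower (17.2%), beside 9.68% and 10.4% of all measured genes. Against the 0 h control the balance turned, with 5 higher and 10 lower. HYH and HY5, bZIP factors of photomorphogenesis, rose by 3.22 and 3.15 (standard error at most 0.40 and 0.66) in the authors' deposited table, and BBX25 by 2.42. Against the 0 h control HYH stood at 1.45, and BBX25, not listed there, was computed at -0.29. PAR1, a negative regulator of shade growth, fell by 2.36. Over all genes, the comparison with the 0 h control had 2686 higher (10.9%) and 2744 lower (11.2%), or 22.1% called. Of the 2374 genes that rose against the 2 h control, 69 (2.91%) were listed with the opposite sign against the 0 h control, and 883 were not listed there. Of the 2546 that fell, 62 (2.44%) had the opposite sign and 907 were not listed. The 2 comparisons share the hypoxic plants. NDA1, an alternative NADH dehydrogenase, was among the largest of these, at 2.73 against the 2 h control and -0.65 against the 0 h control.

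Among protein folding and redox genes, heat shock had 11 of 31 measured members higher (35.5%) and 0 lower. Of all measured genes 9.68% rose and 10.4% fell. The chaperone genes HSP90.1 and HSP70 rose by 2.88 and 2.7, ROF2, an immunophilin, by 2.85, and the factor HSFA2 by 2.63 (standard error at most 0.79), in the authors' deposited table. Antioxidant enzymes had 12 of 31 higher (38.7%) and 2 lower (6.45%). GPX7 led at 1.92, with VTC2, of ascorbate synthesis, at 1.36 and GR1, a glutathione reductase, at 1.09. Flavonoid genes had 11 of 33 higher (33.3%) and 1 lower (3.03%). F3H rose by 2.76, UGT78D2, a flavonoid glucosyltransferase, by 1.88, chalcone synthase CHS by 1.87 and chalcone isomerase TT5 by 1.43. Against the 0 h control F3H stood at 1.17, UGT78D2 at 0.73, CHS at 1.02, TT5 at 0.67 and HSP70 at 1.41. The untreated control of 2 h lay below that of 0 h, by -1.59 for F3H and -1.15 for UGT78D2. The flavonoid and heat shock lists also had members lower in untreated C13 than in untreated WT at 0 h, as given further on. For HSP70 the untreated 2 h plants differed in the opposite direction.

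Ribosome assembly had 14 of 38 members higher (36.8%) and 0 lower, all with values of 0.90 or less, the ribosomal protein RPL3B leading. Mitochondrial genes had 4 of 24 higher (16.7%) and 1 lower (4.17%). The cytochrome c gene CYTC-2 stood at 1.89 and the factor NAC013 at 1.49 in the authors' deposited table. AOX1A, the alternative oxidase, was not listed, at no more than 0.97 in size. Among glutathione transferases 4 of 37 rose (10.8%) and 3 fell (8.11%), near the 9.68% and 10.4% of all genes, with GSTU17 at 2.91. Set against the 0 h control, GSTU17 stood at 0.88, CYTC-2 at 0.79 and RPL3B at 0.54.

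Of the growth lists, cell wall remodelling had 16 of 41 measured members lower (39.0%, against 10.4% of all genes) and 5 higher. This list too was chosen with earlier results of these data known. The xyloglucan enzymes XTH22, XTH30 and XTH9 fell by 2.67, 2.57 and 2.39 and the expansin-like EXLA1 by 2.45 (standard error at most 0.64) in the authors' deposited table, while the expansin EXPA10 rose by 2.23. XTH30 stood at -1.33 against the 0 h control. Auxin genes had 9 of 52 lower (17.3%) and 7 higher (13.5%), with the efflux carrier PIN4 at -1.97 and the influx carrier AUX1 at -1.53. Gibberellin and brassinosteroid genes had 10 of 39 lower and 6 higher, with BAS1, which inactivates brassinosteroids, at -1.49. Cytokinin genes had 8 of 35 lower and 1 higher. The response regulators ARR9 and ARR4 fell by 1.87 and 1.75. In cell division 6 of 24 fell and 3 rose, with the cyclin-kinase inhibitor KRP6 at 1.26.

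Stress hormone lists were mixed. Of all measured genes 9.68% rose and 10.4% fell. Abscisic acid genes had 9 of 41 lower (22.0%) and 5 higher (12.2%). The phosphatases PP2CA and HAI1 stood at -1.64 and -1.40 in the authors' deposited table. Cold genes had 4 of 28 higher (14.3%) and 3 lower (10.7%). CBF3 and CBF2, factors of the cold response, rose by 2.53 and 1.82 (CBF2 1.1 against the 0 h control), and COR47, a dehydrin, fell by 1.59. Jasmonate genes had 5 of 30 higher (16.7%) and 4 lower (13.3%), with JAZ7 at -1.53. Salicylate and defence genes had 4 of 22 lower and 0 higher, with NPR3, a salicylate receptor, at -1.33. Early stress factors had 7 of 38 in each direction (18.4%), with MYB73 at -2.06 (-1.16 against the 0 h control) and ERF4 at 1.74. Calcium genes had 4 of 22 lower, and CML38 was the 1 that rose.

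The mineral nutrition lists are set beside 9.68% of all measured genes that rose and 10.4% that fell. Iron genes had 9 of 34 lower (26.5%) and 7 higher (20.6%). IMA3, a peptide of iron uptake, stood at 1.90 and the factor BHLH101 at -1.65. Sulphur genes had 4 of 26 higher (15.4%) and 2 lower (7.69%), with SDI2 at 1.78 (0.73 against the 0 h control). Phosphate genes had 3 of 15 higher and 2 lower, with SPX1, a phosphate sensor, at 2.1. Aquaporins had 4 of 13 lower (30.8%) and 1 higher (7.69%), with PIP3 at -1.63 in the authors' deposited table. Chlorophyll synthesis had 6 of 24 lower (25.0%) and 0 higher, with PORB, a protochlorophyllide oxidoreductase, at -1.08. Of 46 photosynthesis genes 1 was higher, the antenna gene LHCB7 at 2.13 (0.94 against the 0 h control), 2 were lower and 43 were not listed, which does not show that they were unchanged. There were 9 lower against the 0 h control. Of 16 measured root markers 0 were listed. In RNA from whole shoots, fewer cells of a type and less RNA per cell cannot be told apart.

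The response of C13 was set against those of Mt62 and WT, which share no plants with it. Mt62 had 4754 genes called (19.4%), 2299 higher (9.37%) and 2455 lower (10.0%). WT had 4451 called (18.1%), 2019 higher (8.23%) and 2432 lower (9.91%). Of the genes that rose in C13, 1596 (67.2%) also rose in Mt62, which is 69.4% of the genes that rose in Mt62, and 1529 (64.4%) also rose in WT, which is 75.7% of those of WT. Of the genes that fell in C13, 1790 (70.3%) fell in Mt62 (72.9% of its own) and 1695 (66.6%) fell in WT (69.7% of its own). Another 570 genes that rose (24.0%) and 556 that fell (21.8%) were listed in C13 and in neither other line. Their median sizes were 0.54 and 0.55. CBF3 at 2.53 and XTH22 at -2.67 were the largest of them, and for most the difference between lines was not tested.

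The difference itself was tested where both responses were known, using the bound as the standard error, with 60 degrees of freedom and Benjamini-Hochberg adjustment over all rows tested. Without values per sample no exact test could be run, and the adjusted p rests on a t approximation. An upper bound as the standard error makes the test conservative, so a row that did not pass is not shown to respond equally. Against Mt62, 0 of 4213 rows passed (0.0%), the smallest adjusted p was 0.167, and 135 rows had an unadjusted p under 0.05 (3.2%). Against WT, 5 of 4049 rows passed (0.123%), and 4 of 3405 genes (0.117%), while 183 rows had an unadjusted p under 0.05 (4.52%). AT3G57062 rose by 0.80 in C13 and stood at -0.10 in WT (difference 0.90, standard error at most 0.15), with an adjusted p of 0.000798. AT1G70420 stood at 0.99 in C13 and -1.16 in WT (difference 2.14, at most 0.45), with an adjusted p of 0.0289. ZFP8, a zinc finger factor, stood at -1.54 in C13 and -0.47 in WT, and CRF4, a cytokinin response factor, at 0.37 in C13 and -0.42 in WT, each with an adjusted p of 0.0486. C13 minus WT, untreated at 2 h and then after hypoxia, was computed at -1.43 and 0.71 for AT1G70420 and -0.61 and 0.29 for AT3G57062. For ZFP8 it was 0.69 and -0.38, so each of these stood further apart in the untreated plants. The passing row with no gene stood at -0.32 and 0.48, further apart after hypoxia, and CRF4 had neither value. With 30 degrees of freedom, or with bounds for unlisted values, 1 row passed, and with only rows listed in both lines 0 passed. The median size of the difference over the rows tested was 0.15 against WT and 0.14 against Mt62.

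**Figure D4:**
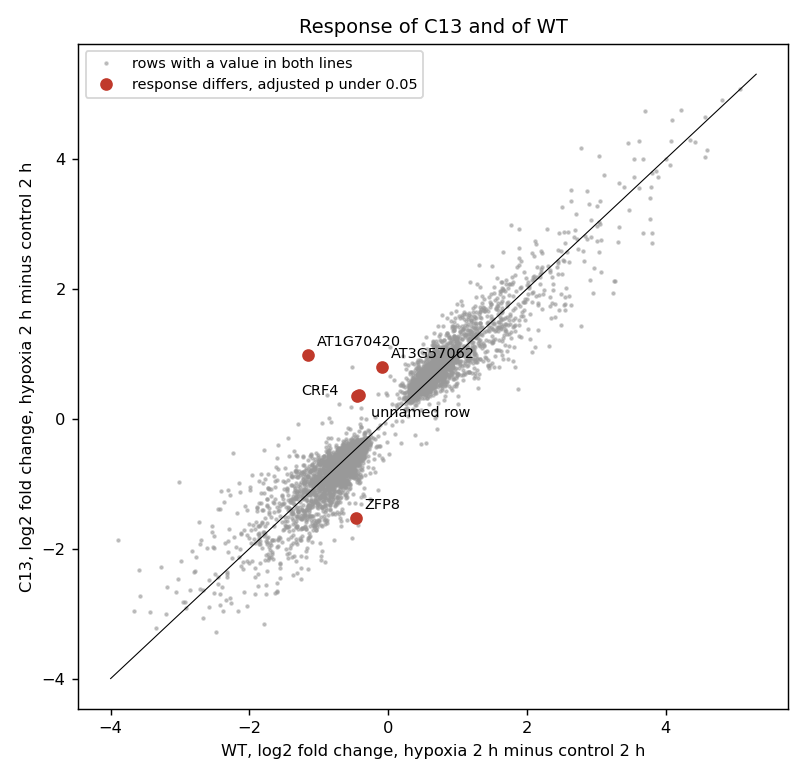
Log2 fold change, hypoxia 2 h minus control 2 h, of C13 (vertical) against WT (horizontal) for each row with a value in both lines; the line marks equal values and red points the 5 rows whose responses differed at an adjusted p under 0.05. AT1G70420 lay at 0.99 in C13 and -1.16 in WT.

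A separate column gives C13 minus WT with both lines after 2 h of hypoxia. It shares the hypoxic C13 plants with the main comparison, and the values are set side by side only. Over all genes 397 were listed (1.62%), of which 208 were higher in C13 (0.848%) and 189 lower (0.77%). Of the 4920 genes called in the hypoxia response, 160 were listed there (3.25%), 72 higher and 88 lower. The evening clock had 8 of 19 members higher in hypoxic C13 and 1 lower. In the authors' deposited table COR27 stood 2.66 higher, COR28 2.29, ELF4 1.89 and FKF1 1.29, while CCA1, of the morning clock, stood at -1.09. COR27 responded by -1.87 in C13 and -3.89 in WT, and the difference of 2.02 (standard error at most 0.81) did not pass, with an adjusted p of 0.821. For ELF4 the difference was 2.05 (at most 0.69), with an adjusted p of 0.521. Cold genes had 4 of 28 members higher in hypoxic C13, with COR15B at 1.54 and RCI2A at 1.2. In the untreated 0 h plants of C13 and WT, 682 genes were listed (2.78%), 256 higher in C13 (1.04%) and 426 lower (1.74%). In the evening clock 0 members were higher there and 1 lower. In the untreated 2 h plants C13 minus WT was computed at 0.64 for COR27 and -0.08 for CCA1, which was not tested. Untreated C13 at 0 h had 15 of 38 ribosome assembly, 8 of 33 flavonoid and 6 of 31 heat shock members lower than WT. In each list 0 were higher. HSP70 stood at -1.89, HSP90.1 at -1.51 and CHS at -1.22. In the untreated 2 h plants, the controls of the main comparison, HSP70 was computed at 0.96 in C13 minus WT, the opposite sign. For HSP90.1 and CHS the 2 h value could not be computed.

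**Figure D5:**
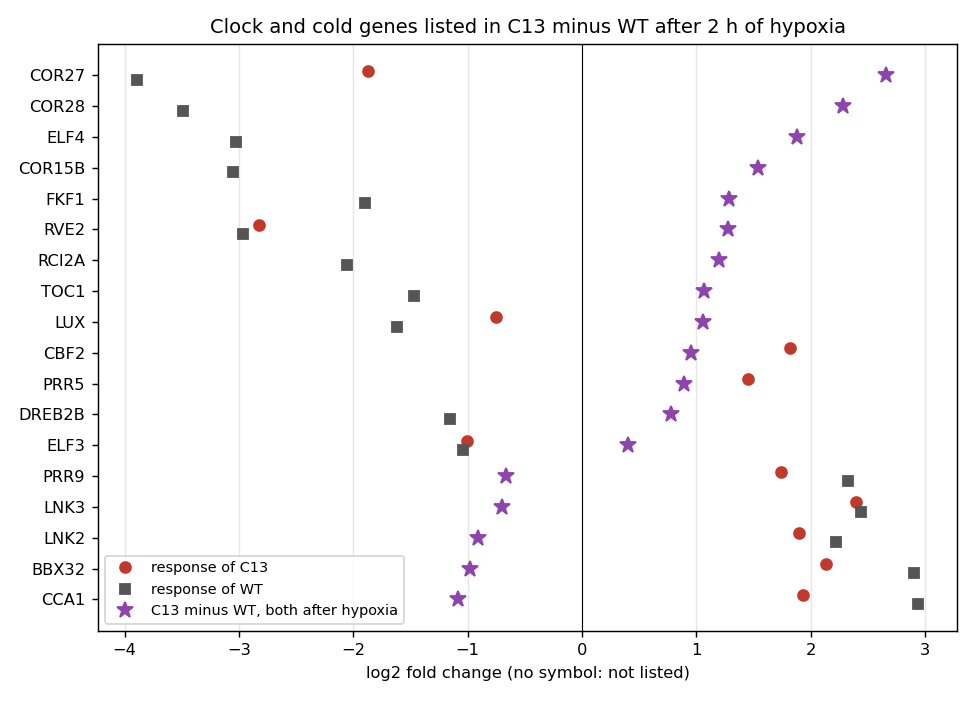
Log2 fold changes of every clock and cold gene listed in C13 minus WT after hypoxia (stars), with the hypoxia response of C13 (circles) and of WT (squares); no symbol means not listed. COR27 lay 2.66 higher in hypoxic C13 than in hypoxic WT, and CCA1 lay at -1.09.

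After 24 h of hypoxia, against the untreated 24 h control, C13 had 8484 genes called (34.6%), 4300 higher (17.5%) and 4184 lower (17.1%). PDC1 and ADH1 stood at 4.78 and 4.08 there in the authors' deposited table, close in value to the 4.90 and 4.12 of 2 h. SRO5 stood at 2.83 at 24 h and 4.74 at 2 h, and GPT2 at 3.74 and 4.13. RVE2 had opposite signs, 3.00 at 24 h and -2.83 at 2 h. Differences between the times were not tested.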

How the data were processed

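RNA from shoots was hybridised to Agilent arrays; each field took 3 samples in different dyes, per the labels' protocols. The values are log2 fold changes deposited by the authors (base taken as 2), made by quantile normalization, an in-house modified ComBat and an empirical Bayes test; a value whose p exceeded 0.01 is null, per the labels' design text. No value per channel was analysed here, and signal over background is unknown.

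Probe rows were named from the probe table: 26366 rows have 1 gene, 8192 none and 0 several, for 24530 genes. A gene was called where at least 1 row was listed and all listed rows had 1 sign; its value is their mean, and 3 genes with opposite signs were left out. Named genes with only 1 of 2 rows listed include AT4G10265, BT2, BT1, BGAL1, F3H, ERF4, ASN2, PORB, NIA2 and BHLH101. Columns are additive (largest residual 2.0e-09), so some unlisted values were computed. The smallest listed value of a row, scaled by channel numbers and divided by 2.58, bounds its standard error. In 4412 of 4473 rows (98.6%) the listing followed 1 such threshold. The number of C13 hypoxia channels is not certain: the column's description gives 3. Responses of lines were compared with this bound, 60 degrees of freedom and Benjamini-Hochberg adjustment at 0.05, in Python 3.11.15 with scipy 1.17.1; the code was tested on simulated data.

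Named genes were the 15 highest and 15 lowest, the 4 largest of each of 38 lists, the 3 and 3 nearest 0, those passing a line test, and a fixed set of fermentation, oxygen sensing and NO genes; others named were chosen after their values were seen. The members and lists were chosen with earlier results of these data known. Alternatives were the rule from rows to genes, a size of at least 1, adjusted p, the 0 h control, channel number, rows used and degrees of freedom. An exact test between lines could not be run without values per sample. No sequences are shown.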

Additional observations from a re-analysis of the deposited data

Results flagged for a closer look

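The hypoxia response differed between C13 and WT, by the test of the difference, in 5 rows. ZFP8 had a difference of -1.07, CRF4 of 0.79, AT3G57062 of 0.90, AT1G70420 of 2.14, and a row with no gene of 0.80, at 0.35 in C13 and -0.45 in WT. For ZFP8, AT3G57062 and AT1G70420, C13 and WT stood further apart in the untreated 2 h plants than after hypoxia, as given above. Outlying samples could not be looked for, since the table has no values per sample.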

How the results depend on the processing

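Counts of 2374 genes that rose and 2546 that fell became 2376 and 2547 with the largest row of a gene, 2202 and 2368 with all rows listed, and 2686 and 2744 with the 0 h control. With a size of at least 1 they were 560 and 706, and with Benjamini-Hochberg adjustment from the bound 1464 and 1636, where 3698 of 5986 listed rows passed. Against WT 5 rows differed in response; 4 with 4 channels for C13 hypoxia, 0 with both values listed, 1 with bounds for unlisted values and 1 with 30 degrees of freedom, AT3G57062 remaining with bounds. Against Mt62 the count was 0 in each setting. Of the 160 called genes listed in C13 minus WT, 17 had a size of at least 1. Of the 173 called genes named by the stated rule, which leaves out genes such as LNK2 and AT5G61440 named after their values were seen, 129 kept their sign and were listed against the 0 h control, 1 kept it unlisted, 34 had no value and 9 reversed: NDA1 -0.65, BBX25 -0.29, LNK3 -1.44, CCA1 -1.14, CDF3 -0.87, PIP2;3 -1.12, SS4 0.47, COR27 3.35 and AT1G07050 1.23. The cause was not tested. No paired analysis was possible because the table has no values per sample, so no replicate could be left out.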

Other observations

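Genes next to each other in locus order formed 93 runs of at least 3 called in 1 direction. With 9.68% of measured genes higher and 10.4% lower, some runs arise by chance. The count was not compared with an expected number. AT4G10260, AT4G10265 and AT4G10270 rose together with a mean of 3.63. Cross-hybridisation between neighbours of similar sequence was not tested. The run of 6 from WRKY46 to CNGC12, with CPC, AT2G46420, CNGC3 and CNGC11 between them, had a mean of 1.38. Both were chosen after their values were seen.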
